A study of Mus musculus with 6 samples.

Results

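The genes described here are the peroxisome proliferator-activated receptors *Ppara*, *Ppard* and *Pparg*, their coactivator *Ppargc1a*, the retinoid X receptors *Rxra* and *Rxrb*, and the lipid response genes *Plin2*, *Fabp4*, *Fabp5* and *Angptl4*. They were taken by symbol, not by their values, though with earlier results of these data known. They make up 10 of the 56748 genes in the tables. RNA was sequenced from uteri of control and *Gp130* ecKO mice on day 4 of pregnancy, at 1600 h. There were 3 libraries in each group, and each is called a uterus below. The background strain is C57BL/6 in the labels and C57BL/6J in the study's methods. The *Gp130* ecKO females carried floxed *Gp130* and iCre in the lactotransferrin locus, which is active in the uterine epithelium of sexually mature females, so the deletion was aimed at the epithelium and not at stroma or muscle. Lactotransferrin is also expressed in some neutrophils and macrophages, where the allele may act. The labels give the control genotype as WT, and the study's methods describe controls as floxed females without iCre or as wildtype. Each library came from whole uterus and therefore mixed luminal and glandular epithelium, stroma, muscle, vessels and blood cells. The labels do not say whether each library is 1 animal, so p-values measure the spread between these samples.

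PPARs are nuclear receptors that bind fatty acids and their oxygenated derivatives, such as prostaglandins and lipoxygenase products. Each PPAR pairs with an RXR on DNA, most often at a direct repeat of the sequence AGGTCA, and genes for fatty acid transport, storage and oxidation are their classical targets. In the uterus at implantation, PPAR delta is the subtype best known from work on prostacyclin signalling, and PPAR gamma is known mainly from fat cells, macrophages and trophoblast.

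All 10 genes passed the filter on low counts, *Ppara* only through *Gp130* ecKO and *Fabp4* only through control, the groups where they are high, so the counts that include them below are not support for a difference. None of the 10 genes passed an FDR of 0.05 in edgeR's quasi-likelihood test, where 26 of 16605 tested genes did (0.157%), 21 of them higher (0.126%) and 5 lower (0.0301%). At an unadjusted p below 0.05 there were 3 of the 10 (*Ppara*, *Rxra* and *Fabp4*), beside 25.0% of all tested genes. In 4 of the 10 the groups did not overlap in CPM, the read count scaled to a common size of TMM-adjusted libraries. *Ppara* and *Rxra* were higher in every *Gp130* ecKO uterus than in every control uterus, and *Pparg* and *Fabp4* were lower. Over all tested genes 31.3% did not overlap, 15.7% higher and 15.6% lower in *Gp130* ecKO, so the 10 genes separated about as often as the rest of the transcriptome. The median log2 fold change was −0.07 over the 10 genes and −0.05 over all tested genes. Other tests on the same counts called more genes. DESeq2 called *Fabp4* and *Rxra* (13.9% of the genes it tested), edgeR's exact test called *Fabp4* (8.9%), and its likelihood ratio test called *Fabp4* (9.5%).

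**Figure D1:**
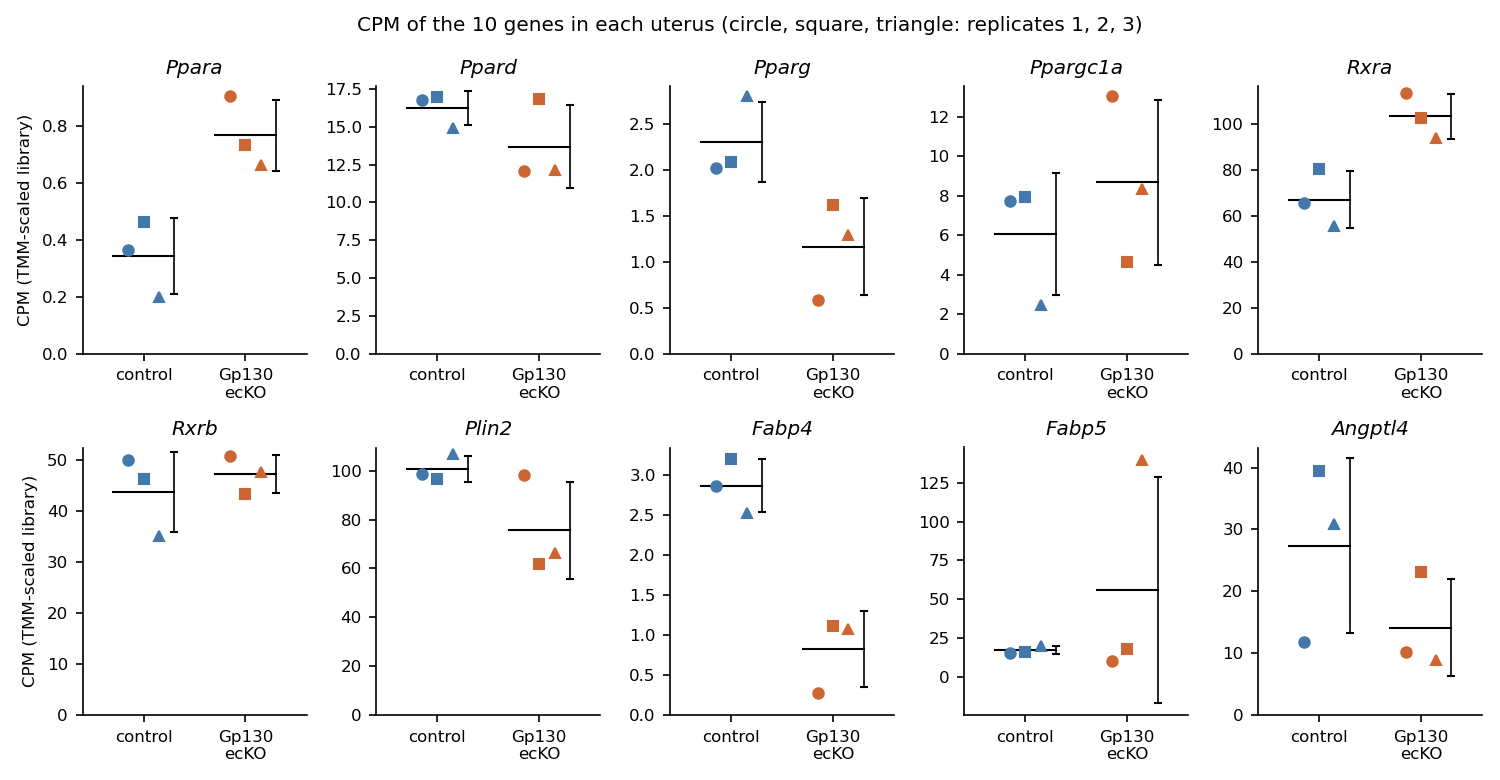
CPM (vertical axes, linear, a scale per gene) of the 10 genes in 3 control (blue) and 3 *Gp130* ecKO uteri (orange), with the mean as a line and the SD over 3 uteri as a bar. *Ppara*, *Rxra*, *Pparg* and *Fabp4* separate the groups, and *Fabp5* is 140 CPM in *Gp130* ecKO 3 and at most 19.9 CPM in the other uteri, which draws its SD bar below 0.

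Total expected counts ranged from 13960748 in control 3 to 25906443 in control 2. *Il6st*, which encodes GP130, measured 631, 678 and 452 CPM in control replicates 1, 2 and 3, against 388, 349.8 and 362 CPM in the *Gp130* ecKO replicates, in the direction the labels give. On the first dimension of a multidimensional scaling, control 2 lay between the groups, at 0.03. The other controls were at 2.08 and 2.09 and the *Gp130* ecKO uteri from −1.47 to −1.32. The scaling used the tested genes that differed most between each pair of libraries, not all genes. Without control 2, 928 genes passed the FDR of 0.05, and again none of the 10 did. The sums of epithelial, stromal and endothelial markers separated the groups, though none of these markers passed the FDR of 0.05. The summed CPM of 8 epithelial markers was 2241 to 3942 in control and 5446 to 7190 in *Gp130* ecKO. The sum of 8 stromal markers was 1969 to 2343 in control and 1061 to 1476 in *Gp130* ecKO. In a bulk sample, fewer cells of a type and less RNA per cell cannot be told apart.

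In control uteri the PPARs differed in level by more than any of them differed between groups. On the scale of TPM, which corrects for transcript length, the median in control uteri was 6.72 for *Ppard*, 1.53 for *Pparg* and 0.13 for *Ppara*. The ranges of these genes did not overlap among control uteri, and *Ppard* also stood above the other PPARs in all 3 *Gp130* ecKO uteri. Of the RXRs, *Rxrb* (median 27.8 TPM) was above *Rxra* (median 16.7 TPM) in control, with 24.9 TPM as the lowest *Rxrb* and 21.6 TPM as the highest *Rxra* value. In CPM, which is not corrected for length, *Rxra* made up 56.7%, 63.4% and 61.3% of their sum in control. The order of the RXRs in control thus depended on the estimated lengths. In *Gp130* ecKO uteri the medians were 31.8 TPM for *Rxrb* and 32.0 TPM for *Rxra*, and their ranges overlapped. *Plin2* had the highest TPM of the 10 genes in 2 of the 3 *Gp130* ecKO uteri and in all controls, with medians of 83.5 TPM in control and 61.4 TPM in *Gp130* ecKO. In *Gp130* ecKO 3 *Fabp5* was higher, at 188 TPM. Among the control levels the neighbours *Rxrb*, *Fabp5*, *Angptl4* and *Rxra* overlapped in order, as did *Pparg* and *Ppargc1a*.

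*Ppard* (ENSMUSG00000002250, chromosome 17, 28451674 to 28520448 of GRCm39, plus strand) encodes the PPAR found in most tissues. It measured 16.8, 17.0 and 14.9 CPM in control replicates 1, 2 and 3, against 12.1, 16.8 and 12.1 CPM in the *Gp130* ecKO replicates. *Gp130* ecKO 2 was at the control level and the other *Gp130* ecKO uteri were below all controls. The log2 fold change of *Gp130* ecKO over control was −0.25 with a standard error of 0.23 (quasi-likelihood adjusted p = 0.518), and from −0.42 without *Gp130* ecKO 2 to −0.14 without *Gp130* ecKO 3.

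*Pparg* (ENSMUSG00000000440, chromosome 6, 115337675 to 115468268, plus strand) encodes the receptor that drives fat cell differentiation. Its CPM was 2.02, 2.08 and 2.80 in control uteri against 0.588, 1.61 and 1.29 in *Gp130* ecKO uteri, in the same order of replicates. All *Gp130* ecKO values were below all control values, and *Gp130* ecKO 1 was the lowest. The log2 fold change was −0.96 with a standard error of 0.44 (quasi-likelihood adjusted p = 0.225), resting on 13 to 54 reads per uterus. Per 1000 CPM of stromal markers *Pparg* was 1.03, 0.889 and 1.4 in control uteri against 0.554, 1.28 and 0.871 in *Gp130* ecKO uteri, where the groups overlapped (log2 difference −0.35, exact two-sided permutation p = 0.4). Per 1000 CPM of endothelial markers the log2 difference was 0.03 (exact permutation p = 1.0). The part of these cell types in the *Pparg* values was not tested.

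*Ppara* (ENSMUSG00000022383, chromosome 15, 85618656 to 85687067, plus strand) encodes the PPAR that drives fatty acid oxidation in liver and heart. It was near the lower limit of measurement, with 9, 12 and 3 expected counts in control uteri against 20, 19 and 16 in *Gp130* ecKO uteri. In CPM this was 0.364, 0.463 and 0.2 in control uteri against 0.904, 0.731 and 0.663 in *Gp130* ecKO uteri. All *Gp130* ecKO uteri were higher, and the log2 fold change was 1.08 with a standard error of 0.46 (quasi-likelihood adjusted p = 0.198). Only 1 control uterus, against all 3 *Gp130* ecKO uteri, reached the 0.397 CPM that the filter on low counts asks for, so the gene was tested because of its values in *Gp130* ecKO. Per 1000 CPM of epithelial markers it was 0.1, 0.117 and 0.0892 in control uteri against 0.126, 0.134 and 0.118 in *Gp130* ecKO uteri. The groups still did not overlap on that ratio, but the lowest *Gp130* ecKO and highest control values were almost equal (log2 difference 0.31). Against single epithelial markers the difference ran from −1.27 for *Krt19* to 1.37 for *Epcam*, so the direction depended on the marker. Of the 75-base stretches in its transcripts, 42.5% lie on the opposite strand of *Cdpf1*, which had 133 to 327 expected counts, and the sources used here do not say whether counting used strand.

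*Ppargc1a* (ENSMUSG00000029167, chromosome 5, 51611592 to 51725068, minus strand) encodes PGC1A, a coactivator of PPARs and a driver of mitochondrial biogenesis. It measured 7.73, 7.91 and 2.47 CPM in control uteri against 13, 4.65 and 8.33 CPM in *Gp130* ecKO uteri. The groups overlapped, with control 3 lowest and *Gp130* ecKO 1 highest (log2 ratio 0.50 with a standard error of 0.53, quasi-likelihood adjusted p = 0.571). The ratio was 0.09 without *Gp130* ecKO 1, 0.15 without control 3 and 0.81 without *Gp130* ecKO 2.

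The shares of the PPARs within each uterus do not depend on scaling between libraries. *Ppara* made up 1.55%, 2.67% and 0.907% of the summed PPAR TPM in control and 8.16%, 4.69% and 4.73% in *Gp130* ecKO. *Pparg* made up 18.3%, 17.4% and 26% in control and 6.64%, 12.9% and 14.8% in *Gp130* ecKO. *Ppard* made up the rest, 80.2%, 79.9% and 73.1% in control and 85.2%, 82.5% and 80.5% in *Gp130* ecKO. These 3 shares add up to the whole and are not separate results, and *Ppara*, with 3 to 12 expected counts in control, was tested only through its values in *Gp130* ecKO. For *Pparg* the groups did not overlap (exact two-sided permutation p = 0.1, also after adjustment over the 5 shares computed here, the smallest that 3 against 3 uteri can give). For *Ppard* the nearest uteri of the groups were almost equal, and as shares of CPM, which leave out the estimated lengths, the groups overlapped, at 87.6%, 87.0% and 83.3% in control and 89.0%, 87.8% and 86.2% in *Gp130* ecKO.

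**Figure D2:**
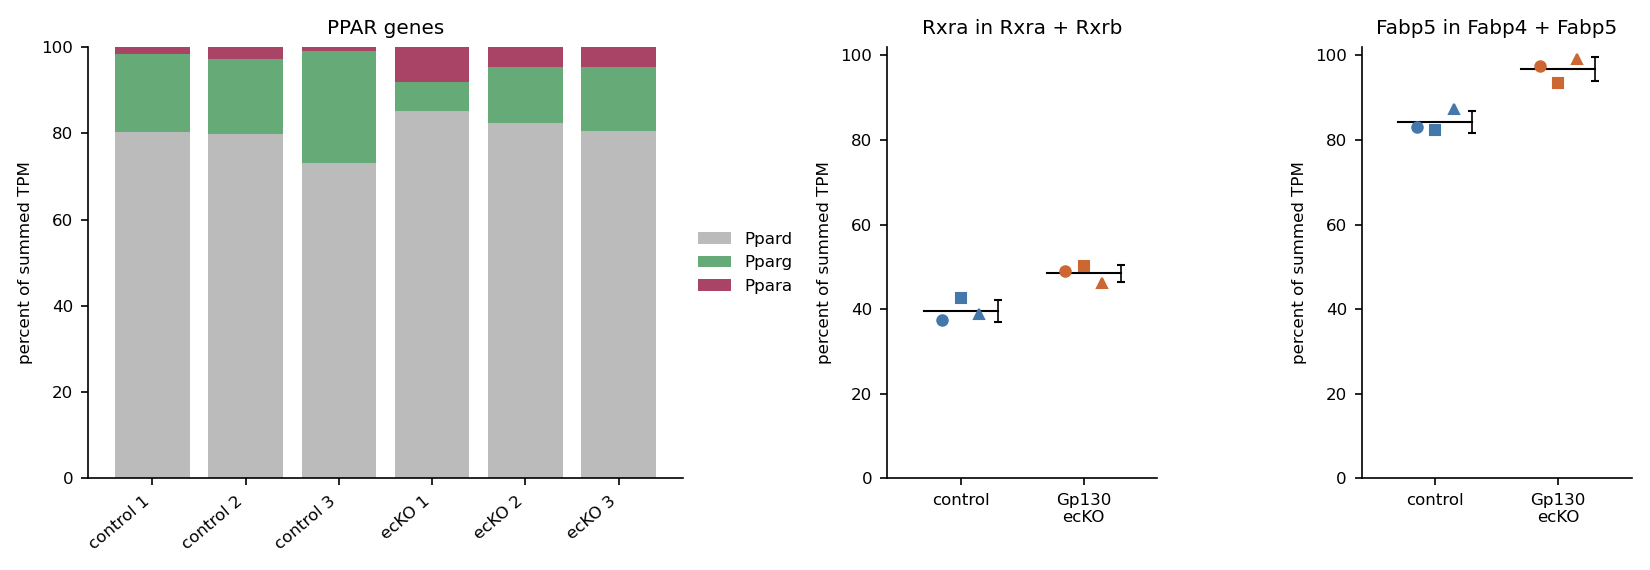
Percent of summed TPM per uterus: stacked bars for the PPAR genes in each of 6 uteri, and points for *Rxra* in *Rxra* + *Rxrb* and for *Fabp5* in *Fabp4* + *Fabp5*, with mean and SD over 3 uteri (circle, square and triangle for replicates 1, 2 and 3). *Ppard* is the largest PPAR share in every uterus, the *Ppara* share is 0.907 to 2.67% in control and 4.69 to 8.16% in *Gp130* ecKO, and both right-hand shares separate the groups.

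*Rxra* (ENSMUSG00000015846, chromosome 2, 27566452 to 27653330, plus strand) encodes an RXR, the common partner of PPARs, LXRs and retinoic acid receptors. It measured 65.5, 80.2 and 55.5 CPM in control uteri against 114, 103 and 94.1 CPM in *Gp130* ecKO uteri. All *Gp130* ecKO uteri were above all controls, and control 2 was the closest of the controls. Mean CPM was 67.1 ± 12.5 (SD, n = 3) in control and 103 ± 9.83 (SD, n = 3) in *Gp130* ecKO, which the fit gave as a log2 fold change of 0.62 with a standard error of 0.18 (quasi-likelihood adjusted p = 0.114). DESeq2 gave an adjusted p of 0.0397, and over the 16 alternatives it ran up to 0.312. With any 1 uterus left out the log2 fold change stayed between 0.50 and 0.81. The summed epithelial markers were higher in *Gp130* ecKO by a larger factor than *Rxra*, so *Rxra* per 1000 CPM of epithelial markers was lower in *Gp130* ecKO, at 15.8, 18.8 and 16.7, than in control, at 18.0, 20.4 and 24.7. The groups overlapped on this ratio (log2 difference −0.29, exact two-sided permutation p = 0.2). Its direction depended on the marker, since the epithelial markers themselves differed, from a mean CPM ratio of *Gp130* ecKO over control of 0.876 for *Epcam* to 2.49 for *Krt8* and 4.57 for *Krt19*. Against *Epcam* alone *Rxra* was higher in every *Gp130* ecKO uterus, at 0.265, 0.283 and 0.227 against 0.101, 0.212 and 0.159 in control uteri (log2 difference 0.77). Against the other 7 markers the difference ran from −0.02 for *Cdh1* to −1.87 for *Krt19*, and 2 of these did not overlap. These ratios therefore do not give *Rxra* a direction per epithelial cell.

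*Rxrb* (ENSMUSG00000039656, chromosome 17, 34250759 to 34257376, plus strand) encodes the more evenly expressed RXR. It measured 50.0, 46.3 and 35.0 CPM in control uteri against 50.8, 43.3 and 47.7 CPM in *Gp130* ecKO uteri. The groups overlapped, with control 3 as the only value apart (log2 ratio 0.11 with a standard error of 0.19, quasi-likelihood adjusted p = 0.737, and −0.03 without control 3). As a share of the summed RXR TPM, *Rxra* was 37.5%, 42.6% and 39% in control and 49.1%, 50.2% and 46.3% in *Gp130* ecKO. The groups did not overlap on this share either (exact two-sided permutation p = 0.1). The RXR gene *Rxrg* was under the filter on low counts.

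RefSeq promoters, from 250 bases before to 50 after a start site, were at hand for 7 of the 10 genes, 11 promoters in all; *Angptl4*, *Fabp4* and *Fabp5* were not among them. A direct repeat of AGGTCA with any 1 base between its copies, searched on both strands, was in none of the 11 and in 13 of 32851 mouse promoters (0.0396%). The single element AGGTCA, searched on both strands, was in 4 of the 11 (1 each of *Rxra* and *Plin2* and 2 of *Pparg*) and in 16.3% of all promoters of that length. The table is on GRCm38.p6, and each printed sequence matched GRCm39 at a single place. The start site inside *Rxra* was the one promoter with more than 1 element, so its 250 upstream bases (chr2:27599054-27599303, plus strand) are shown with the window around the element of *Plin2*, the most abundant of the 10 genes in control (chr4:86588489-86588534, minus strand, 218 bases before the start). Both are written 5′ to 3′ from RefSeq, and the capitals mark AGGTCA or its reverse complement TGACCT. A match is a description of letters and not of binding.
*Rxra* upstream: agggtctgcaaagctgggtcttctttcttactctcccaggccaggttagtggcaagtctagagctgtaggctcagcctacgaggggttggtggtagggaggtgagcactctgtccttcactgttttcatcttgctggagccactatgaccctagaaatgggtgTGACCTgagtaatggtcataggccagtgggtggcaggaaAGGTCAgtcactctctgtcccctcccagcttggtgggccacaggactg
*Plin2* window: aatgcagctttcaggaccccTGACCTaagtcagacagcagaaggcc

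*Fabp4* (ENSMUSG00000062515, chromosome 3, 10268785 to 10273737, minus strand) encodes the fatty acid binding protein of fat cells, macrophages and small vessel endothelium, and is a classical PPAR gamma target. It measured 2.87, 3.20 and 2.53 CPM in control uteri against 0.271, 1.12 and 1.08 CPM in *Gp130* ecKO uteri, from 38 to 83 expected counts in control and 6 to 29 in *Gp130* ecKO. All *Gp130* ecKO values were under all control values, and *Gp130* ecKO 1 was the lowest. Mean CPM was 2.87 ± 0.334 (SD, n = 3) in control and 0.821 ± 0.477 (SD, n = 3) in *Gp130* ecKO, which the fit gave as a log2 fold change of −1.79 with a standard error of 0.50 (quasi-likelihood adjusted p = 0.106). Over 16 alternatives its adjusted p lay between 0.0276 (DESeq2) and 0.260, and the log2 fold change from −2.06 to −1.39 with any 1 uterus left out. The gene met the filter of 0.397 CPM in all 3 controls and in 2 *Gp130* ecKO uteri, so it was tested because of its values in control. Of its 75-base stretches 19.5% lie opposite a gene model on the other strand.

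The endothelial markers were also lower in *Gp130* ecKO. Their summed CPM was 1248, 844 and 469 in control replicates 1, 2 and 3, against 277, 432 and 404 in the *Gp130* ecKO replicates. Of the 8 markers 6 did not overlap between the groups, all lower, beside 15.6% of all tested genes. *Fabp4* per 1000 CPM of these markers was 2.30, 3.79 and 5.41 in control uteri against 0.980, 2.58 and 2.67 in *Gp130* ecKO uteri. On that ratio the groups overlapped through control 1, with a log2 difference of −0.94 (exact two-sided permutation p = 0.3). The 8 macrophage markers lay on both sides of 0, with a median log2 fold change of −0.58. *Cd68* (0.39), *Lyz2* (0.39) and *Cd14* (0.52) were on the higher side, and *Adgre1* (−0.55), *Csf1r* (−0.60), *C1qa* (−0.76), *C1qb* (−0.91) and *Mrc1* (−1.28) on the lower, of which *Mrc1* was the one without overlap. Their summed CPM, much of it *Lyz2*, overlapped, at 481 to 528 in control and 411 to 635 in *Gp130* ecKO. The 7 fat cell markers summed to 28.2 to 40.9 CPM in control and 15.6 to 25.2 CPM in *Gp130* ecKO, nearly all of it *Lipe* and, in controls 2 and 3, *Cfd*. *Lep* was 0 in all 6 uteri, and *Adipoq*, *Retn*, *Plin1* and *Cidec* were each at most 0.656 CPM. The part of macrophages and fat cells in the *Fabp4* values was not tested, nor was that of endothelium beyond these ratios.

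**Figure D3:**
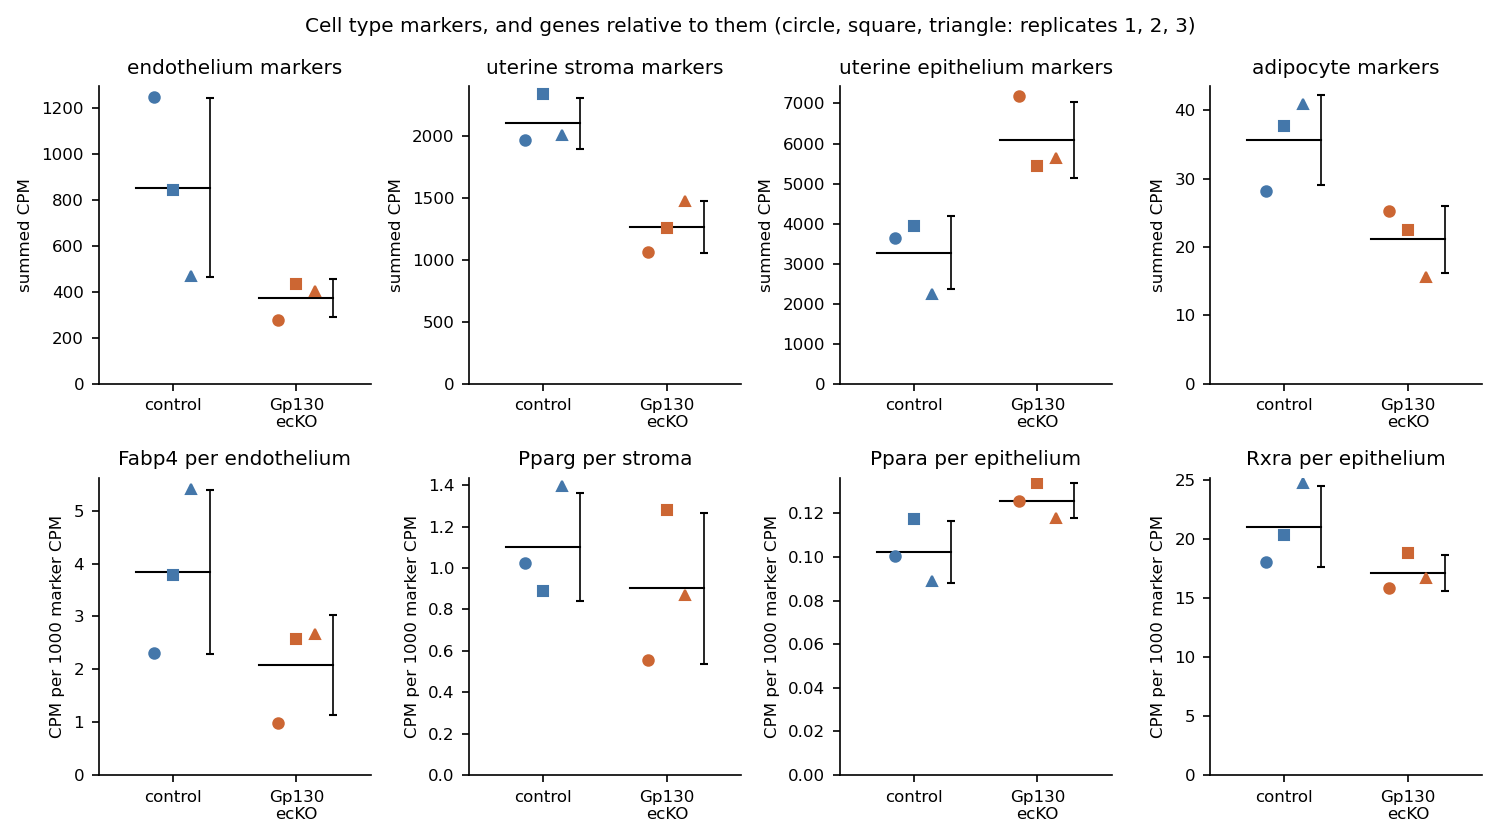
Upper row: summed CPM of the endothelial, stromal, epithelial and fat cell marker lists per uterus. Lower row: CPM of *Fabp4*, *Pparg*, *Ppara* and *Rxra* per 1000 CPM of a marker list, with lines for the mean and bars for the SD over 3 uteri. All 4 marker sums separate the groups, and of the 4 ratios *Ppara* per epithelium does, at 0.0892 to 0.117 in control and 0.118 to 0.134 in *Gp130* ecKO.

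*Fabp5* (ENSMUSG00000027533, chromosome 3, 10077602 to 10081674, plus strand) encodes the epidermal fatty acid binding protein, which hands ligands to PPAR delta. It measured 15.4, 16.3 and 19.9 CPM in control uteri against 10.3, 17.7 and 140 CPM in *Gp130* ecKO uteri. The other *Gp130* ecKO uteri were below or within the control range, and *Gp130* ecKO 3 stood far above every other uterus, with 3376 expected counts. The log2 fold change was 1.71 with a standard error of 0.89 (quasi-likelihood adjusted p = 0.268) with all uteri and −0.26 without *Gp130* ecKO 3, so its direction came from that uterus. Smooth muscle markers summed to 2891, 2173 and 606 CPM in the controls and to 503, 941 and 3077 CPM in *Gp130* ecKO 1, 2 and 3, and their part in the *Fabp5* values was not tested. Of its 75-base stretches 3.02% are shared with the pseudogenes *Gm6166* and *Gm14328*, which had at most 56.7 and 5.48 expected counts.

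Within the pair of binding proteins, *Fabp5* made up 83.1%, 82.4% and 87.3% of the summed TPM in control and 97.5%, 93.6% and 99.2% in *Gp130* ecKO. All *Gp130* ecKO uteri were above all controls. In *Gp130* ecKO 1 *Fabp5* itself was below the control range in CPM and in *Gp130* ecKO 2 within it, so there the share was set by the low *Fabp4*, which passed the filter only through control and had 6 to 29 expected counts in *Gp130* ecKO.

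*Plin2* (ENSMUSG00000028494, chromosome 4, 86565912 to 86588459, minus strand) encodes perilipin 2, the coat protein of lipid droplets in most cells outside fat. It measured 98.5, 96.6 and 107 CPM in control uteri against 98.3, 61.9 and 66.4 CPM in *Gp130* ecKO uteri. *Gp130* ecKO 1 was in the control range and the others were below it, giving a log2 fold change of −0.41 with a standard error of 0.21 (quasi-likelihood adjusted p = 0.253), and from −0.64 without *Gp130* ecKO 1 to −0.28 without *Gp130* ecKO 2.

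*Angptl4* (ENSMUSG00000002289, chromosome 17, 33992724 to 34000804, minus strand) encodes a secreted inhibitor of lipoprotein lipase and responds to PPARs and to hypoxia. Its CPM was 11.9, 39.4 and 30.9 in control uteri against 10.3, 23.2 and 8.95 in *Gp130* ecKO uteri. Controls 2 and 3 were above all *Gp130* ecKO uteri, whereas control 1 was close to the low *Gp130* ecKO values. The log2 fold change was −0.95 with a standard error of 0.52 (quasi-likelihood adjusted p = 0.286), and −1.51 to −0.55 with any 1 uterus left out.

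**Figure D4:**
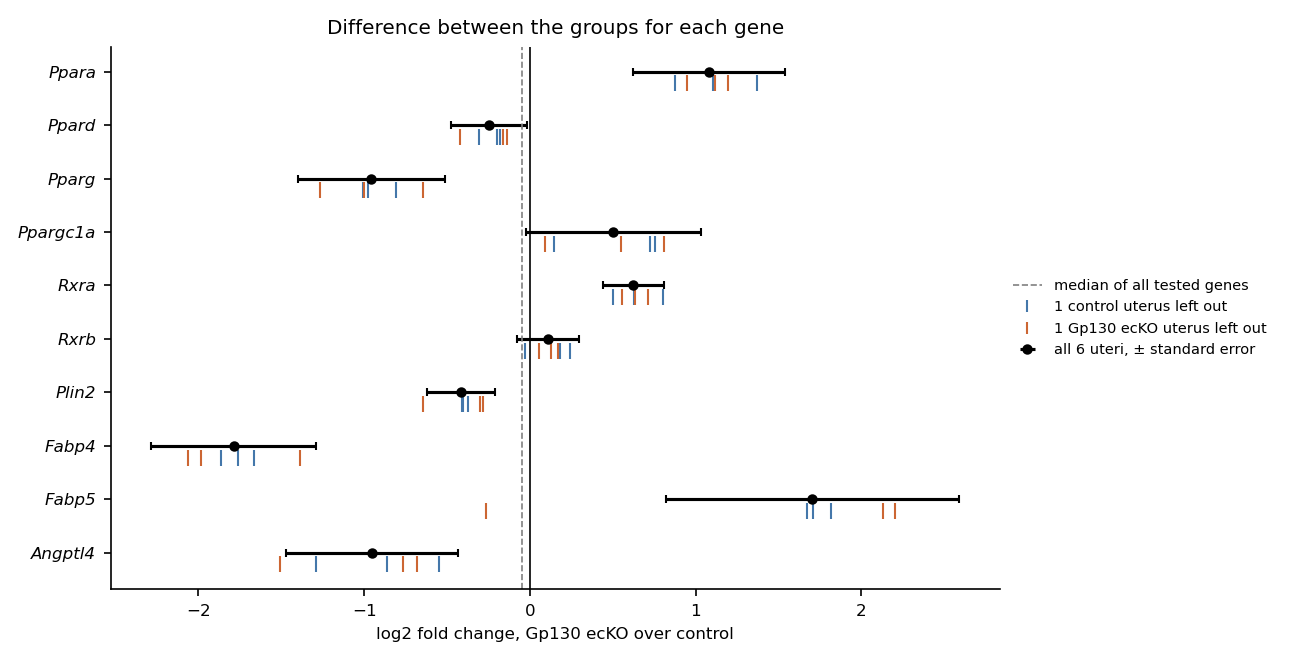
Log2 fold change of *Gp130* ecKO over control for each gene (points, with standard error, from edgeR's quasi-likelihood fit over 6 uteri), and the value after leaving out each uterus in turn (blue ticks, a control; orange ticks, a *Gp130* ecKO uterus). *Fabp5* moves from 1.71 to −0.26 without *Gp130* ecKO 3, *Rxrb* from 0.11 to −0.03 without control 3, and the sign is the same in every tick for the other 8 genes.

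RSEM also gives a mean transcript length per gene, weighted by the estimated abundance of its isoforms. For *Ppara* it was 3413, 2722 and 3413 bases in control uteri against 2193, 2410 and 2628 bases in *Gp130* ecKO uteri. For *Ppard* it was 3154, 3277 and 3282 bases in control uteri against 2799.8, 3144 and 2837 bases in *Gp130* ecKO uteri. *Fabp4* was longer in *Gp130* ecKO, at 1050, 922 and 988 bases against 918, 915 and 896 bases. These 3 genes did not overlap between the groups, and each had an exact two-sided permutation p of 0.1, which was 0.3 after adjustment over 9 genes. Over 13128 tested genes with several transcripts 19.4% did not overlap, 9.72% shorter and 9.67% longer in *Gp130* ecKO. *Rxra* was 4905 bases in all 6 uteri, so no shift between isoforms of different length was estimated for it. Single reads of 75 bases and the few reads of *Ppara* and *Fabp4* limit these estimates. Most lengths did not match a GENCODE M39 transcript, which a weighted mean need not do. The lengths are not assigned to isoforms.

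Of 14763 genes with a mean of at least 1 CPM, those nearest to *Ppara* over the 6 uteri, by the root mean square difference of centred log2(CPM + 0.5), were *Tmem167b* (0.03), *Vti1a* (0.03) and *Rxra* (0.05). The offset of 0.5 is of the size of the *Ppara* values and flattens them, so this likeness is to a compressed pattern. Nearest to *Fabp4* were *Abi3* (0.13), *Pcdh12* (0.13) and *Plekho1* (0.14). These genes were chosen for their likeness to *Fabp4*, so their own difference between the groups is not a result.

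The wider pathway was followed in 128 genes on 9 lists, of which 111 were tested. Genes named with values from these lists were chosen for groups that did not overlap, so that separation is not a result of its own. No gene of these lists passed an FDR of 0.05 in the quasi-likelihood test (0.157% of all tested genes did). At an unadjusted p below 0.05 there were 36 of the 111, beside 25.0% of all tested genes. DESeq2 called 22 (13.9% of the genes it tested), and edgeR's exact and likelihood ratio tests called 15 (8.9%) and 16 (9.5%). The groups did not overlap for 25 genes that were higher and 13 that were lower in *Gp130* ecKO, beside 15.7% and 15.6% of all tested genes. Each count without overlap in the lists below stands beside these same shares. The median log2 fold change over the 111 genes was −0.01, close to that of all tested genes.

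**Figure D5:**
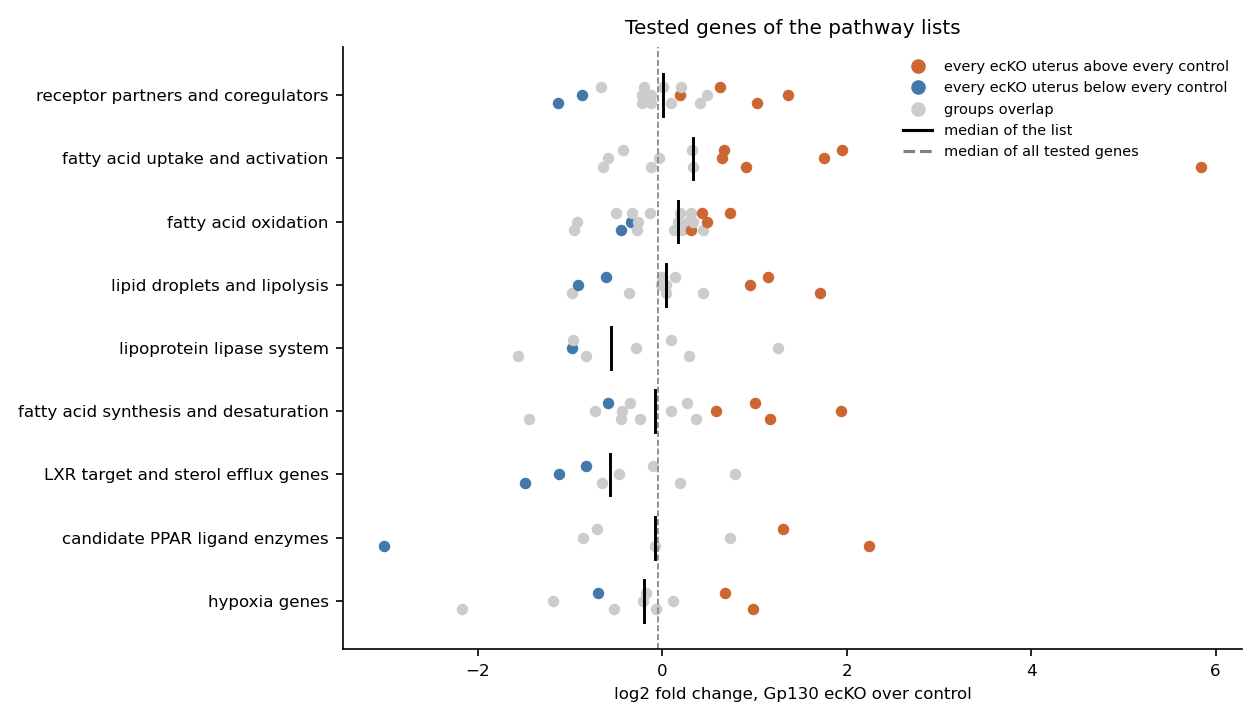
Log2 fold change of *Gp130* ecKO over control for the 111 tested genes of the 9 pathway lists (points), coloured by whether the groups overlap in CPM, with the median of each list and of all tested genes. The medians run from −0.56 for sterol efflux genes to 0.34 for fatty acid uptake and activation, and *Crabp2* lies farthest from 0.

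Among 17 tested partners and coregulators, 4 were higher and 2 lower without overlap (median 0.01, from −0.03 without *Gp130* ecKO 2 to 0.18 without control 2). *Nrip1*, the corepressor RIP140, was 33.9, 89.6 and 60.6 CPM in control uteri against 172, 168 and 133 CPM in *Gp130* ecKO uteri (log2 ratio 1.36, quasi-likelihood adjusted p = 0.0918). *Lpin1*, a phosphatidate phosphatase that also coactivates PPARs, had mean CPM of 6.06 in control and 12.4 in *Gp130* ecKO. *Nr1h3*, which encodes LXR alpha, another RXR partner, was lower in every *Gp130* ecKO uterus, with means of 11.9 and 5.45 CPM, and *Pprc1*, a coactivator of the PGC1 family, had means of 41.4 and 22.6 CPM. Of 8 tested LXR target and sterol efflux genes 3 were lower and none higher without overlap, beside 15.6% and 15.7% of all tested genes (median −0.56, from −0.80 without control 3 to −0.35 without *Gp130* ecKO 3). The exporter *Abca1* was 233, 173 and 312 CPM in control uteri against 135, 82.7 and 38.8 CPM in *Gp130* ecKO uteri, and the HDL receptor *Scarb1* had means of 79.7 and 36.8 CPM.

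Among 13 tested genes of fatty acid uptake and activation, 6 were higher and none lower without overlap, beside 15.7% and 15.6% of all tested genes (median 0.34, from 0.23 without *Gp130* ecKO 2 to 0.56 without control 1). *Crabp2*, which carries retinoic acid to its receptor, was 0, 0.154 and 0.400 CPM in control uteri against 3.48, 5.65 and 18.9 CPM in *Gp130* ecKO uteri (quasi-likelihood adjusted p = 0.0597). It entered the test through its values in *Gp130* ecKO, with control 1 at 0. The counts that include it, here and over all lists, are therefore not support for a difference. *Slc27a3*, an acyl-CoA synthetase of the fatty acid transport family, was 9.10, 6.59 and 9.73 CPM in control uteri against 39.2, 17.0 and 42.1 CPM in *Gp130* ecKO uteri. In both genes the lowest *Gp130* ecKO uterus was above the highest control, which the choice of named genes required. *Fabp1*, *Fabp2*, *Fabp6* and *Fabp7* were under the filter on low counts.

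Of 21 tested genes of fatty acid oxidation 4 were higher and 2 lower without overlap (median 0.18, from −0.02 without control 3 to 0.39 without control 2, and −0.01 without *Gp130* ecKO 3). The mitochondrial dehydrogenase *Acadm* had means of 43.2 CPM in control and 60.6 CPM in *Gp130* ecKO. *Cpt2* and *Acaa2* were lower in every *Gp130* ecKO uterus, with means of 59.9 and 47.6 CPM and of 55.6 and 40.8 CPM. None of these genes moved past the FDR of 0.05, and members of this list lay on both sides of 0.

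Of 13 tested genes of lipid droplets and lipolysis 3 were higher and 2 lower without overlap (median 0.04, from −0.09 without control 3 to 0.45 without control 1). *Dgat2*, which makes triglyceride, was 120, 300.2 and 187 CPM in control uteri against 736, 696 and 555 CPM in *Gp130* ecKO uteri (log2 ratio 1.71, quasi-likelihood adjusted p = 0.0683). Control 2 was the nearest control, and the lowest *Gp130* ecKO uterus was still above it. *Fitm2*, which releases droplets from the endoplasmic reticulum, had means of 35.7 and 78.9 CPM, whereas the hormone-sensitive lipase *Lipe* had 31.3 and 20.6 CPM and *G0s2*, an inhibitor of triglyceride lipase, 5.26 and 2.79 CPM. Of 14 tested genes of fatty acid synthesis and desaturation 4 were higher and 1 lower without overlap (median −0.07, from −0.10 without *Gp130* ecKO 1 to 0.10 without control 2). *Acacb*, an acetyl-CoA carboxylase, had means of 5.16 and 11.7 CPM and the desaturase *Fads1* 59.3 and 39.4 CPM. *Thrsp*, a regulator of lipogenesis, was 27.9, 238 and 25.1 CPM in control uteri against 269, 473 and 376 CPM in *Gp130* ecKO uteri, with control 2 close to the lowest *Gp130* ecKO uterus.

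The lipoprotein lipase system, on which *Angptl4* acts, had 8 tested genes, of which 1 was lower and none higher without overlap (median −0.55, from −0.81 without *Gp130* ecKO 2 to −0.21 without control 1, and −0.28 without *Gp130* ecKO 1). This gene was *Lpl* itself, at 11.8, 12.3 and 9.07 CPM in control uteri against 3.44, 6.35 and 7.05 CPM in *Gp130* ecKO uteri (log2 ratio −0.98, quasi-likelihood adjusted p = 0.141). Of 10 hypoxia genes, listed because *Angptl4* also responds to hypoxia, 2 were higher and 1 lower without overlap (median −0.19, from −0.31 without control 2 to 0.14 without control 1, and −0.08 without *Gp130* ecKO 1). The glucose transporter *Slc2a1* had means of 47.9 CPM in control and 95.3 CPM in *Gp130* ecKO, *Pdk1* had 17.9 and 28.8 CPM, and *P4ha1* had 52.7 and 32.5 CPM.

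Among the enzymes that make candidate PPAR ligands, *Alox15* and *Pla2g4a* had the largest log2 fold changes of these lists after *Crabp2*. Of 7 tested genes 2 were higher and 1 was lower without overlap (median −0.08, from −0.23 without *Gp130* ecKO 2 to 0.64 without control 3). *Pla2g4a*, the cytosolic phospholipase that frees arachidonic acid, was 68.0, 268 and 88.7 CPM in control uteri against 652, 946 and 407 CPM in *Gp130* ecKO uteri (log2 ratio 2.24, quasi-likelihood adjusted p = 0.0941). *Ptgs1*, a cyclooxygenase, was 44.1, 50.0 and 39.7 CPM in control uteri against 105, 75.6 and 151 CPM in *Gp130* ecKO uteri (log2 ratio 1.31, quasi-likelihood adjusted p = 0.0711). *Alox15*, a lipoxygenase whose products bind PPAR gamma, was 1955, 690.4 and 2790 CPM in control uteri against 283, 218 and 173 CPM in *Gp130* ecKO uteri (log2 ratio −3.01, quasi-likelihood adjusted p = 0.0633). Control 2 was the nearest control to the *Gp130* ecKO uteri for *Pla2g4a* and *Alox15*.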

How the data were processed

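For each uterus the authors deposited a table of RSEM gene estimates, holding expected counts (not normalized), TPM, FPKM (not used here) and abundance-weighted length. Per the study's methods, strand-specific poly(A) libraries were read as single 75-base reads, trimmed with fastp 0.23.2, cleared of ribosomal RNA reads, mapped to GRCm39 with STAR 2.7.10a and counted with RSEM 1.3.3, which divides reads shared by genes according to its model. The annotation version and the use of strand in counting are not given in the sources used here. Rounded expected counts were fitted in edgeR 4.0.16 under R 4.3.3 (filterByExpr, TMM, glmQLFit without the legacy setting, glmQLFTest), with Benjamini-Hochberg adjustment over the 16605 tested genes. CPM uses the TMM-scaled library, and standard errors are the log2 fold change over the square root of F. Shares, ratios and lengths were compared with exact two-sided permutation tests. DESeq2 1.42.0 served as an alternative. Symbols and coordinates came from GENCODE M39, which held 56017 of 56748 identifiers.

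The 10 genes, the pathway lists and the markers were chosen with earlier results of these data known. Named in each pathway list were up to 2 genes per direction of largest change, given a mean CPM of at least 1 and groups that did not overlap (1 such gene is not reported here); likeness was computed for the receptor or coactivator and for the lipid gene with the largest change. Totals of 13960748 to 25906443 expected counts limit *Ppara*, *Pparg* and *Fabp4* most. Alternatives were other tests, scalings, filters and thresholds, unrounded counts, a replicate block and each uterus left out. The ratios to marker lists, and the counts of genes without overlap under other scalings and left-out uteri, were added after the data were seen. The fit was tested on simulated data, and the outcome is not reported here.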

Additional observations from a re-analysis of the deposited data

How the results depend on the processing

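The sign of the log2 fold change was the same in every test, scaling, filter and left-out uterus for 8 of the 10 genes (*Ppara* gave no value under the stricter filter). The exceptions were *Fabp5*, −0.26 without *Gp130* ecKO 3 and up to 2.2044 with another uterus left out, and *Rxrb*, −0.0295 without control 3 and up to 0.2402. Against marker sums, *Pparg* per endothelium came to 0.0264 and *Rxra* per epithelium to −0.29; against single epithelial markers *Rxra* came to −0.0158 (*Cdh1*), −0.5113 (*Krt7*), −0.712 (*Krt8*), −0.1313 (*Krt18*), −1.8709 (*Krt19*), −0.2675 (*Cldn3*) and −0.1625 (*Cldn4*), and *Ppara* to −0.1154 (*Krt8*) and −1.2743 (*Krt19*). These ratios were added after the data were seen. The number of the 10 genes called was 0 with the quasi-likelihood test, 1 with the exact test, 1 with the likelihood ratio test and 2 with DESeq2 (1 of these with over 2-fold change). Of the pathway genes 0 were called, against 15 with the exact test, 16 with the likelihood ratio test, 22 with DESeq2 and 2 without a filter on low counts (14, 15, 19 and 2 with over 2-fold change), and 0 to 9 with each uterus left out, 9 without control 2. All genes called were 26, and 1478, 1578, 2212, 7 and 105 with the exact test, the likelihood ratio test, DESeq2, the legacy quasi-likelihood form and no filter (1239, 1317, 1542, 7 and 105 with over 2-fold change). At an FDR of 0.10 they were 1075 (856 with over 2-fold change). With each uterus left out they ran from 1 without *Gp130* ecKO 3 to 928 without control 2 (1 to 897 with over 2-fold change), being 2 without control 1, 3 without control 3, 6 without *Gp130* ecKO 1 and 3 without *Gp130* ecKO 2.

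The number of the 10 genes without overlap was 4, and 5 under total count scaling, for which the share of all tested genes is not reported here. It was 4 to 7 with each uterus left out (7 without *Gp130* ecKO 2, beside 42.2% of tested genes). The share of tested genes without overlap then ran from 36.5% without *Gp130* ecKO 1 to 45.9% without *Gp130* ecKO 3. With the filter of at least 1 CPM in 3 uteri the median came to −0.83 for the lipoprotein lipase system, −0.41 for ligand enzymes and 0.09 for fatty acid synthesis. Replicate numbers did not pair the uteri: same-numbered uteri correlated at 0.104, 0.0691 and −0.196. With the replicate number as a block 6 genes were called, none of the 10, *Fabp5* came to 0.74 and the median of the ligand enzymes to 0.38. The cause of these shifts was not tested. Depth limits *Ppara* (3 to 20 expected counts) and *Fabp4* in *Gp130* ecKO (6 to 29).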

Other observations

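*Crabp2* and *Slc2a1*, like *Fabp5*, were highest in *Gp130* ecKO 3, at 18.9 and 131 CPM, with 3.48 and 5.65 CPM of *Crabp2* and 71.8 and 82.8 CPM of *Slc2a1* in *Gp130* ecKO 1 and 2. This pair was chosen after its values were seen. The gland marker list summed to 8698, 435 and 448 CPM in *Gp130* ecKO 1, 2 and 3, beside 117 to 1138 CPM in control. In *Gp130* ecKO 1 most of it was *Prss29* (6546 CPM) and *Prss28* (1876 CPM), whereas the gland genes *Foxa2* (43.4 CPM) and *Cxcl15* (93.8 CPM) were highest in *Gp130* ecKO 3. Neutrophil markers summed to 5.73 to 9.02 CPM in control and 1.22 to 4.64 CPM in *Gp130* ecKO, and erythrocyte markers to 179 to 338 CPM and 47.7 to 323 CPM.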
